A study of Rattus norvegicus with 6 samples.

Results

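The P2X and P2Y receptors are the cell surface receptors for ATP and related nucleotides. This account covers 10 of their genes, chosen by name: P2rx2, P2rx3, P2rx4, P2rx5, P2rx6, P2rx7, P2ry1, P2ry2, P2ry12 and P2ry13. All 10 were found, each as 1 entry, among the 22536 genes of the deposited table of FPKM (fragments scaled to transcript length and to library size). They are 10 of 15 P2 receptor genes looked up, and the other 5 are described after them. RNA was sequenced from 3 rats with painful diabetic neuropathy (PDN) and from 3 control rats, all male, and each library is taken as 1 animal because the design text counts 3 rats per group. The labels call the tissue of every library sensory neuron, while the title of the series names dorsal root ganglion, where the cell bodies of sensory neurons lie. Hyodeoxycholic acid, the bile acid of the title, is in none of the 6 sample labels. The sources used here give neither strain nor age nor the way diabetes was induced.

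P2X receptors are cation channels built from 3 subunits that open when ATP binds outside the cell. P2Y receptors bind ATP, ADP or UTP and act through G proteins. Damaged and stressed cells release ATP, and in sensory ganglia the P2X3 subunit, alone or together with P2X2, is known as the main ATP-gated channel of small nociceptive neurons. P2X4, P2X7, P2Y12 and P2Y13 are known chiefly from macrophages, microglia and other cells of immune or glial kind, and P2X5 and P2X6 from neurons and skeletal muscle.

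The libraries held RNA of neurons and of the cells around them. The 12 sensory neuron markers, led by Tubb3 and Uchl1, summed to 5859 to 6276 FPKM in PDN and 5761 to 6506 in control libraries. The 10 Schwann cell markers summed to 3418 to 4100 FPKM in PDN and 3416 to 4221 in controls, so the tissue was not neurons alone. The 11 markers found for non-peptidergic nociceptors, the neurons best known for P2X3, were led by Ret, at 140 to 179 FPKM, and Grik1. These 11 markers summed to 279 to 327 FPKM in PDN and 266 to 329 in controls, with Mrgprx1 listed at 0 throughout. In such a mixture, fewer cells of a type and less RNA per cell cannot be told apart. Skeletal muscle markers summed to 196 FPKM in PDN 3 and 617 in control 2, against 2.44 to 36.4 in the other 4 libraries. The FPKM rest on 51855000 to 62785000 fragments per library, a depth worked out by setting the deposited tables side by side.

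P2rx3, the ATP channel subunit of nociceptors, stood far above the rest of the family in every library. It was at 108, 120 and 109 FPKM in PDN 1, 2 and 3, against 114, 106 and 121 FPKM in control 1, 2 and 3. The groups overlapped, and the highest library was only 1.14 times the lowest. By its mean of 113 FPKM, P2rx3 ranked 475 among the 13282 genes that reached 1 FPKM in at least 3 libraries, which are the genes tested here. Its log2 fold change (PDN over control, computed from log2(FPKM + 1)) came to -0.02 ± 0.07 (SE; 95% interval -0.193 to 0.156). The interval spans 0, so no direction can be given. In the deposited table P2rx3 (ENSRNOG00000008552) lies on chromosome 3 from 72403993 to 72447801, by a genome build that is not stated, and shares 265 bases with Ssrp1.

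**Figure D1:**
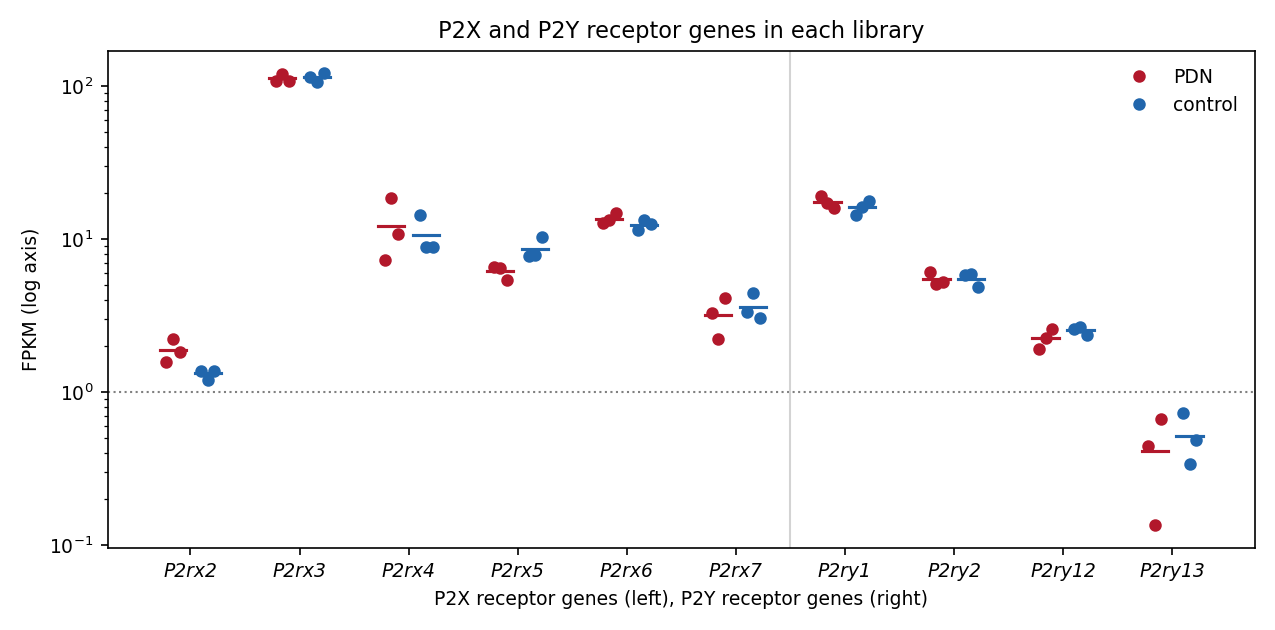
FPKM of the 10 receptor genes on a log axis. Each point is 1 library, red for PDN and blue for control (n = 3 each), the short lines are means and the dotted line marks 1 FPKM. P2rx3 lies at 106 to 121 FPKM, P2ry13 is below 1 FPKM in all 6 libraries, and PDN and control points are apart in P2rx5 and P2rx2 alone among the 10 genes.

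The sequence before the start of P2rx3 is shown because this gene carried 75.4% of the summed P2X level on average. RefSeq, on build GRCr8, lists 2 starts for it on the minus strand, with the 250 bases before each given here from 5′ to 3′. Capitals mark matches to any of 5 motifs searched on both strands: the TATA box TATAAA, the GC-rich Sp1 motif GGGCGG, the motif CCAAT, the core of Runx sites TGTGGT and the cAMP response element TGACGTCA.
P2rx3, chr3:90529310-90529559, minus strand: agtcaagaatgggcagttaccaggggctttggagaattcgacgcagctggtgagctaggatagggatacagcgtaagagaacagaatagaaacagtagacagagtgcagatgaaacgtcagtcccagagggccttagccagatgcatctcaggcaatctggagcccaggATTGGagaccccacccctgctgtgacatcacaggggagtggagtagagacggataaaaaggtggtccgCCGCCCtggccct
P2rx3, chr3:90531316-90531565, minus strand: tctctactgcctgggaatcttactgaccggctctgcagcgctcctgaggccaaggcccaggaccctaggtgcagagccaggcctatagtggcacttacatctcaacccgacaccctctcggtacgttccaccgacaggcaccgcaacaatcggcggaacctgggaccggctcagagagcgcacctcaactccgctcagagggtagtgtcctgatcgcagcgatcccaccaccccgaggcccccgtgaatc

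The first window held 7 CpG dinucleotides and the second 16, and the median over the 33469 windows of this kind in RefSeq was 5. The first held CCAAT, read on the opposite strand, with 76 bases between it and the start, and GGGCGG, also on the opposite strand, with 7 bases between. The 2 matches do not overlap, and the second window matched none of the 5 motifs. Among all windows, 34.0% held CCAAT, 30.5% GGGCGG, 12.9% TATAAA, 14.5% TGTGGT and 1.59% TGACGTCA. Windows were found for 7 of the 10 genes. GGGCGG was also matched before P2rx7, P2ry1 and P2ry2, and the CpG count was highest for P2ry2, at 25, and lowest for P2rx6, at 3. Which start is used in this tissue was not measured.

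P2rx2, whose product joins P2X3 in heteromeric channels, was a minor partner by level and was higher in all 3 PDN libraries than in any control. It was at 1.56, 2.21 and 1.83 FPKM in PDN 1, 2 and 3, against 1.38, 1.21 and 1.38 FPKM in control 1, 2 and 3. The means were 1.87 ± 0.327 FPKM in PDN and 1.32 ± 0.101 FPKM in control rats (SD, n = 3 each), with a log2 fold change of 0.30 ± 0.11 (SE). The unadjusted p in limma was 0.0332 and the adjusted p 0.999, so the difference did not pass the threshold of 0.05 over all tested genes. Its locus (ENSRNOG00000037456) lies on chromosome 12 from 52397792 to 52401015 by the deposited coordinates. The level is low: by its FPKM and the 3224 bases of its locus, P2rx2 drew on at most 306, 413 and 323 fragments in the PDN libraries and at most 263, 244 and 231 in the controls. Without PDN 2 the log2 fold change was 0.21, with an unadjusted p of 0.109. With the libraries richest in muscle RNA left out, PDN 3 and control 2, it was 0.27, with an unadjusted p of 0.151.

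Relative to P2rx2, the level of P2rx3 was lower in every PDN library than in any control library. The FPKM of P2rx3 was 69.3, 54.1 and 59.4 times that of P2rx2 in PDN 1, 2 and 3, against 82.5, 88.2 and 87.5 times in control 1, 2 and 3. On the log2 scale the ratio averaged 5.92 ± 0.18 in PDN and 6.43 ± 0.05 in control rats (SD, n = 3 each), a difference of -0.51. The mean FPKM of P2rx3 in PDN was 0.987 times that in controls, and that of P2rx2 was 1.41 times. The ratio thus mostly restates the difference in P2rx2 and is no further fall of P2rx3. It was taken from FPKM without the added 1, unlike the log2 fold changes. A two-sided exact permutation test gave p = 0.1, the smallest p that this test can give for 3 libraries against 3, so the test cannot pass 0.05 here. P2rx3 and P2rx2 are known to share only some kinds of neuron, so the ratio is one of tissue levels and not of channels.

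P2rx5, which encodes a channel subunit with small currents of its own, had the smallest unadjusted p of the 9 tested members and was lower in all 3 PDN libraries. It was at 6.60, 6.43 and 5.37 FPKM in PDN 1, 2 and 3, against 7.78, 7.90 and 10.3 FPKM in control 1, 2 and 3. No PDN value reached the lowest control, and control 3 stood above the other controls. The means were 6.14 ± 0.665 FPKM in PDN and 8.66 ± 1.41 FPKM in control rats (SD, n = 3 each), with a log2 fold change of -0.43 ± 0.12 (SE) and a 95% interval of -0.721 to -0.141. The unadjusted p in limma was 0.00955 and the adjusted p 0.999, so P2rx5 did not pass the threshold. Leaving out 1 library at a time, the log2 fold change ran from -0.49 to -0.31, the smallest size being the one without control 3. Its locus (ENSRNOG00000019208) lies on chromosome 10 from 59725398 to 59737126. P2rx5 is also known from skeletal muscle. The muscle marker sum was 2.44 FPKM in control 3, the highest library for P2rx5, and 617 FPKM in control 2. Without PDN 3 and control 2 the log2 fold change was -0.41, and the part of muscle RNA in it was not tested.

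**Figure D2:**
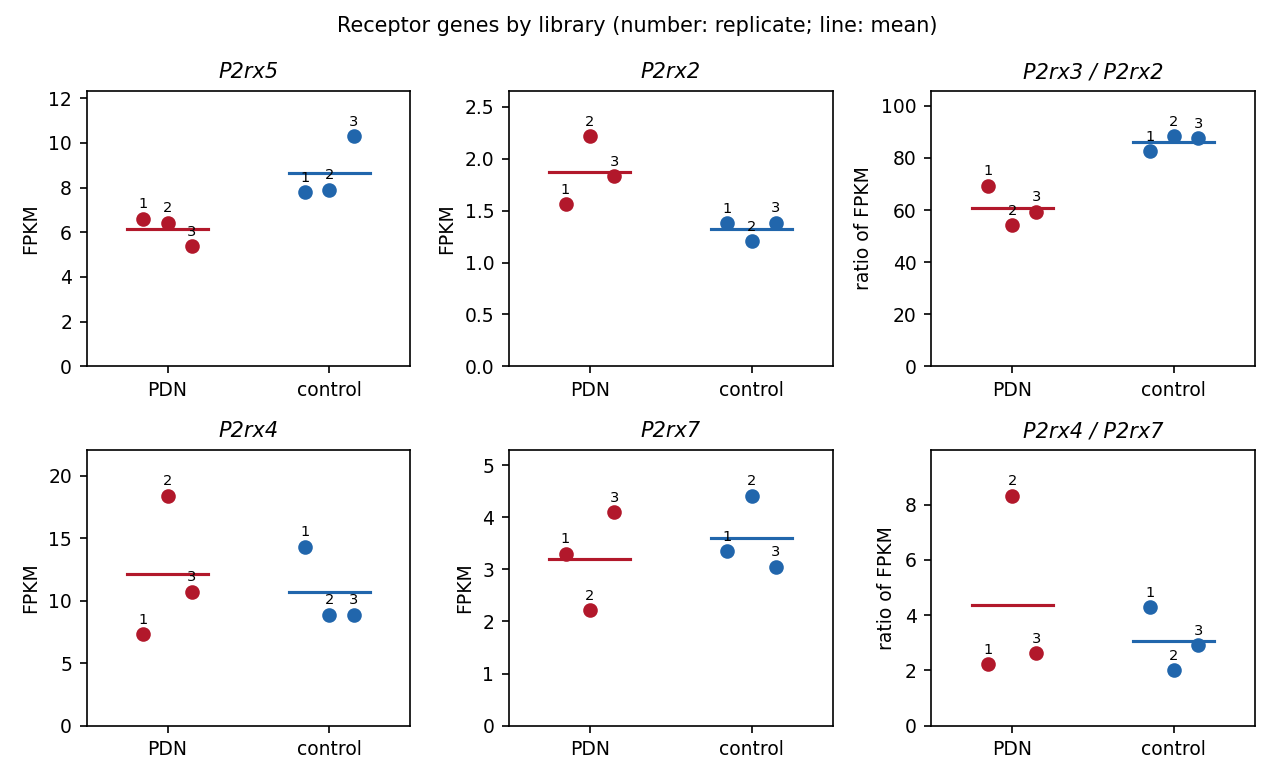
FPKM of P2rx5, P2rx2, P2rx4 and P2rx7, and the ratios P2rx3 to P2rx2 and P2rx4 to P2rx7, in each library (red PDN, blue control; the number is the replicate, the line the mean; all axes start at 0). PDN and control points do not overlap for P2rx5, P2rx2 and the ratio of P2rx3 to P2rx2, while P2rx4 is highest in PDN 2 (18.4 FPKM) and control 1 (14.3 FPKM).

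P2rx4 varied more between rats than between groups. This subunit of a channel found on neurons and on macrophages and microglia was at 7.30, 18.4 and 10.7 FPKM in PDN 1, 2 and 3, against 14.3, 8.89 and 8.87 FPKM in control 1, 2 and 3. PDN held both the highest and the lowest library. The within-group SD on the log2 scale was 0.507, larger than in 97.8% of tested genes, whose median was 0.119. The estimate on the log2 scale was 0.11 ± 0.31 (SE; 95% interval -0.617 to 0.841), and it was -0.21 without PDN 2.

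P2rx7, next to P2rx4 on chromosome 12, encodes the channel that opens a large pore and drives inflammasome activation in macrophages. It was at 3.30, 2.21 and 4.09 FPKM in PDN 1, 2 and 3, against 3.34, 4.41 and 3.05 FPKM in control 1, 2 and 3. PDN 2, the highest library for P2rx4, was the lowest for P2rx7. The FPKM of P2rx4 was therefore 8.32 times that of P2rx7 in PDN 2 and 4.28 times in control 1, against 2.01 to 2.91 times in the other 4 libraries. This ratio was looked at after the values were seen and was not tested. For P2rx7 the log2 fold change was -0.14 ± 0.19 (SE) and 0.04 without PDN 2, and its within-group SD of 0.284 was larger than in 92.5% of tested genes. By the deposited coordinates, P2rx4 (ENSRNOG00000001300) spans 39308025 to 39325673 and P2rx7 (ENSRNOG00000001296) 39353613 to 39396042, with 27939 bases and no other listed gene between them.

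P2rx6 encodes a subunit that forms few channels alone and joins P2X2 and P2X4. It was the second P2X gene by level, at 12.8, 13.3 and 14.7 FPKM in PDN 1, 2 and 3, against 11.4, 13.4 and 12.4 FPKM in control 1, 2 and 3. The groups overlapped through control 2, and the estimate on the log2 scale was 0.12 ± 0.09 (SE; 95% interval -0.0783 to 0.323). Its locus lies wholly inside the listed locus of Lrrc74b, whose mean FPKM was 1.60 in PDN and 1.76 in control rats, so fragments of these genes may not have been told apart.

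The 6 P2X genes together summed to 140, 162 and 145 FPKM in PDN 1, 2 and 3, against 152, 142 and 157 FPKM in control 1, 2 and 3. The sums overlapped, and the exact permutation test, two-sided, gave p = 0.9 for the difference of -1.24 FPKM. P2rx3 made up 75.3 ± 1.91% of the sum in PDN and 75.6 ± 1.27% in control rats (SD, n = 3 each; exact permutation p = 0.8). P2rx6 followed with a mean share of 8.72% over the 6 libraries, P2rx4 with 7.55%, P2rx5 with 4.94%, P2rx7 with 2.30% and P2rx2 with 1.06%. FPKM is scaled to length, which allows these genes to be set against each other within a library.

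Among the P2Y genes, P2ry1 was the most abundant. It encodes the ADP receptor that couples to Gq and phospholipase C. It was at 19.1, 17.2 and 15.9 FPKM in PDN 1, 2 and 3, against 14.3, 16.2 and 17.7 FPKM in control 1, 2 and 3. The groups overlapped, and the estimate on the log2 scale was 0.11 ± 0.10 (SE; 95% interval -0.124 to 0.344). P2ry2, the receptor for ATP and UTP, was at 6.07, 5.07 and 5.21 FPKM in PDN 1, 2 and 3, against 5.80, 5.87 and 4.85 FPKM in control 1, 2 and 3. The estimate on the log2 scale was -0.01 ± 0.10 (SE; 95% interval -0.252 to 0.227).

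P2ry12 and P2ry13 encode ADP receptors that couple to Gi, and P2Y12 is the target of the antiplatelet drug clopidogrel. P2ry12 was at 1.92, 2.24 and 2.59 FPKM in PDN 1, 2 and 3, against 2.57, 2.67 and 2.35 FPKM in control 1, 2 and 3. Its values overlapped through PDN 3, and the estimate on the log2 scale was -0.12 ± 0.11 (SE; 95% interval -0.373 to 0.126). P2ry13 was below 1 FPKM in every library and was therefore not tested: it was at 0.441, 0.135 and 0.663 FPKM in PDN 1, 2 and 3, against 0.725, 0.340 and 0.482 FPKM in control 1, 2 and 3. By the 1253 bases of its locus these values stand for at most 34, 10 and 45 fragments in PDN and 54, 27 and 31 in controls. Without the filter on low values its log2 fold change was -0.11 ± 0.16 (SE). Both genes lie inside the listed locus of Med12l, with 9491 bases between them. Med12l had a mean FPKM of 18.6 in PDN and 15.9 in control rats. The sources used here do not say how fragments of nested genes were assigned.

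The macrophage marker sum differed between groups and libraries beside these genes, with every PDN sum below every control sum. Of 13 markers found, 10 had a lower mean in PDN and 5 had all PDN values below all control values, against 6.24% of tested genes. Some other cell types had mostly lower estimates in PDN too, against 7524 of the 13282 tested genes. Lower were 8 of 8 tested pericyte and smooth muscle markers, 4 of 4 red blood cell, 6 of 7 endothelial and 8 of 10 satellite glia markers. The sums of these 4 lists overlapped between groups. Sensory neuron markers had 8 of 12 higher, Schwann cell markers 5 higher and 5 lower, and non-peptidergic nociceptor markers 4 higher and 5 lower. The macrophage marker sum was 51.0, 37.6 and 48.4 FPKM in PDN 1, 2 and 3, against 65.7, 51.2 and 64.2 FPKM in control 1, 2 and 3. PDN 2, the lowest library for the macrophage marker sum, was also the lowest for P2rx7 and P2ry13, yet the highest for P2rx4. P2ry13 drew on at most 10 fragments there. The other libraries did not follow that order for P2rx7, which was highest in control 2, at 4.41 FPKM. Control 1, the highest library for the macrophage marker sum, was the highest for P2ry13 and had P2rx7 at 3.34 FPKM. These matches between libraries were not tested. The platelet markers, looked at because platelets carry P2Y12 and P2Y1, summed to 1.55 to 2.35 FPKM in PDN and 1.96 to 4.22 in controls, and 4 of the 5 were under 1 FPKM in every library. The 8 markers of T cells and neutrophils summed to at most 2.38 FPKM. None of the macrophage, platelet, and T cell and neutrophil lists had a marker at 0 in all libraries. The part of other cells in the levels of the receptor genes was not tested.

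**Figure D3:**
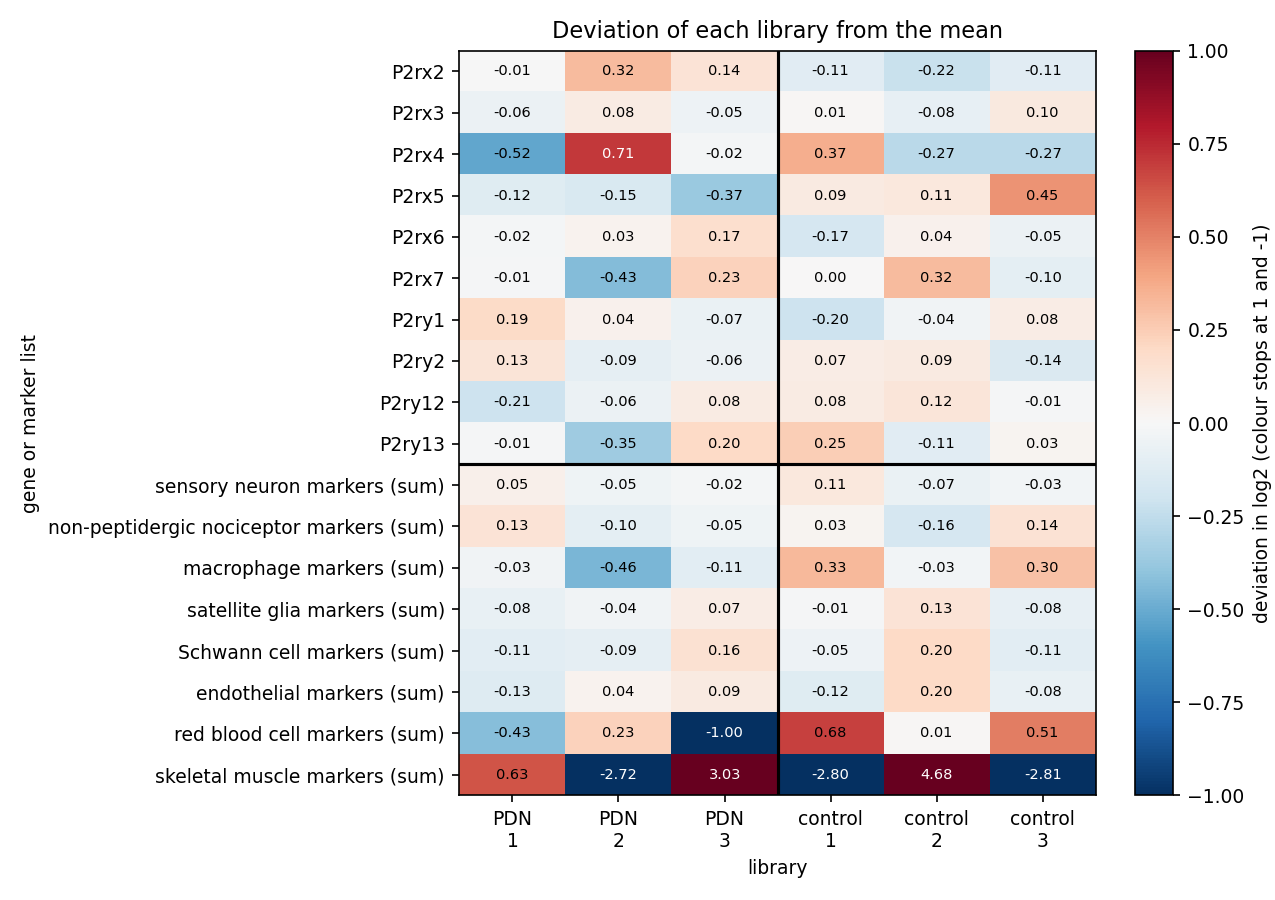
Deviation of each library from the mean of all 6, as log2(FPKM + 1), for the 10 receptor genes (above the line) and for the summed FPKM of 8 marker lists (below it), with PDN libraries left of control libraries. PDN 2 stands out for P2rx4 (0.71), P2rx7 (-0.43), P2ry13 (-0.35) and macrophage markers (-0.46). P2rx7 is highest in control 2 (0.32), where macrophage markers are at -0.03. The muscle markers set PDN 3 (3.03) and control 2 (4.68) apart.

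The 4 P2Y genes summed to 27.6, 24.7 and 24.3 FPKM in PDN 1, 2 and 3, against 23.4, 25.1 and 25.3 FPKM in control 1, 2 and 3. The difference of 0.902 FPKM had an exact permutation p of 0.6 (two-sided) and was -0.121 FPKM without PDN 1. By mean level over the 6 libraries the 10 genes ran in the order P2rx3, P2ry1, P2rx6, P2rx4, P2rx5, P2ry2, P2rx7, P2ry12, P2rx2 and P2ry13. The ranges of neighbours were apart between P2rx3 and P2ry1, between P2ry2 and P2rx7, and between P2rx2 and P2ry13. The other 6 pairs of neighbours overlapped in range over the libraries. Within each of the 6 libraries, P2ry1 still lay above P2rx6, P2rx5 above P2ry2 and P2ry12 above P2rx2. In 5 libraries P2rx4 lay above P2rx5, and in 5 P2rx7 lay above P2ry12. P2rx6 lay above P2rx4 in only 4 of 6 libraries, so P2rx6 and P2rx4 do not differ in level beyond their spread.

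As a group, 0 of the 9 tested members passed an adjusted p of 0.05 in limma. The background was the same, with 0% of the 13282 tested genes called. At an unadjusted p under 0.05 there were 2 members, P2rx2 higher and P2rx5 lower in PDN, against a background of 4.72% (1.83% higher and 2.89% lower). The same 2 of 9 members had groups that did not overlap, against 9.93% of tested genes (3.69% higher and 6.24% lower). Of the 9 members 4 had a higher and 5 a lower estimate. Their median log2 fold change was -0.01, beside -0.02 for all tested genes. The median size of the fold change, sign left aside, was 0.12 among the members and 0.07 among all tested genes. With 9 genes chosen by name, these shares describe the members and carry no test.

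**Figure D4:**
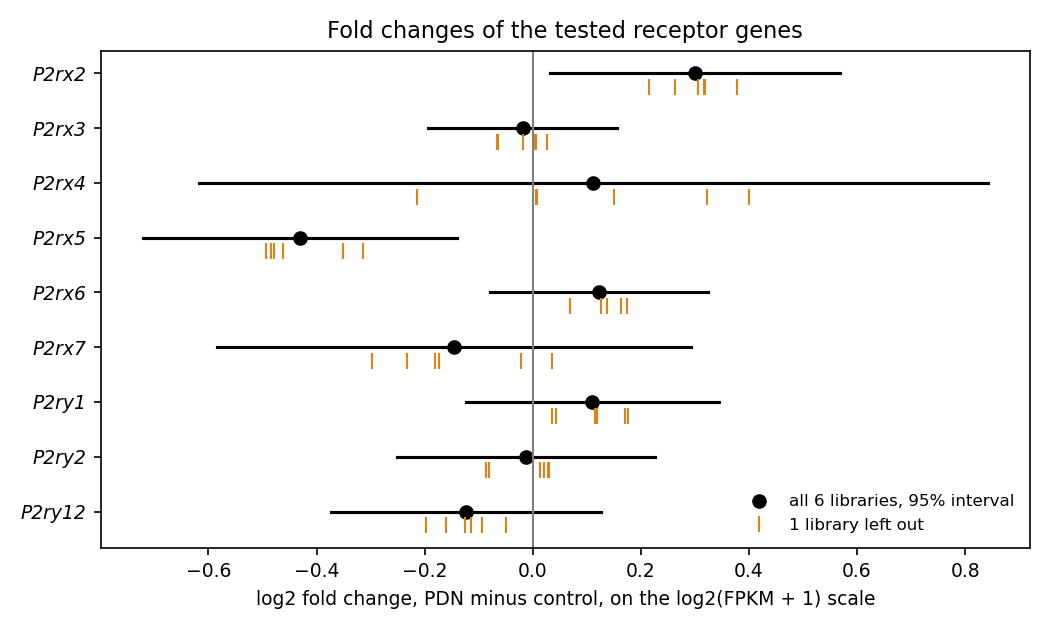
Log2 fold change (PDN over control, from log2(FPKM + 1)) of the 9 tested members, as a point with its 95% interval from limma (n = 3 each); orange ticks are the estimates with 1 library left out. The interval lies below 0 for P2rx5 (-0.721 to -0.141) and above 0 for P2rx2 (0.0313 to 0.568) before adjustment over all genes, and P2rx4 has the widest interval.

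The other 5 P2 receptor genes were scarce. P2ry14, the receptor for UDP-sugars, was the 1 that reached the filter, at 1.03, 0.915 and 0.932 FPKM in PDN 1, 2 and 3, against 1.26, 1.32 and 0.976 FPKM in control 1, 2 and 3. The groups overlapped through control 3, and its log2 fold change was -0.15 ± 0.11 (SE), with an unadjusted p of 0.192. P2rx1, P2ry4, P2ry6 and P2ry10 had values under 1 FPKM in every library, the highest being 0.638 FPKM for P2ry6 in control 1.

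The genes whose level followed 2 of the receptors most closely were looked up by Pearson's r of log2(FPKM + 1) over the 6 libraries, for the most abundant member and for the one with the smallest p. For P2rx3 they were Pop1 (r = 0.987), Zfand4 (0.980), LOC103692570 (0.978), Alpk1 (0.977) and Rprd1a (0.976). For P2rx5 they were Lpcat1 (r = 0.989), Nptx2 (0.988), Fn1 (0.981), Fbxw11 (0.981) and Mad2l2 (0.977). The genes with an r above 0.9 numbered 59 for P2rx3 and 70 for P2rx5, or 0.444% and 0.527% of the tested genes. With 6 points taken from libraries that also differ in their makeup of cells, and 13282 genes to choose from, these values are a description.

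Enzymes that break down extracellular nucleotides set how long ATP and ADP act. Of 12 tested ectonucleotidase and adenosine enzyme genes, 6 lay higher and 6 lower in PDN by estimate, around a median of -0.002 (log2). None of them had an unadjusted p under 0.05 in limma. In 1 of the 12 all PDN values lay below all control values, against 6.24% of tested genes. Acpp, the phosphatase that makes adenosine on nociceptors, was the most abundant by the mean of all 6 libraries, at 65.2 ± 11.3 FPKM in PDN and 55.1 ± 7.32 FPKM in control rats (SD, n = 3 each). Adk, which clears adenosine by phosphorylation, averaged 59.6 ± 4.04 FPKM in PDN, against 56.3 ± 2.23 FPKM in control rats. Entpd3, an ectonucleotidase of sensory neurons, averaged 31.8 ± 1.31 FPKM in PDN, against 30.3 ± 0.612 FPKM in control rats.

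Adenosine receptors take up the signal once ATP is degraded. All 3 tested genes lay higher in PDN by estimate, as did 5758 of the 13282 tested genes. Their median was 0.19 on the log2 scale, with Adora1 at 0.03, and none had an unadjusted p under 0.05 in limma. That median was 0.10 without control 2, 0.10 without PDN 1 and 0.30 without PDN 3. Adora1, the Gi-coupled receptor linked to analgesia, averaged 25.2 ± 1.17 FPKM in PDN, against 24.7 ± 0.476 FPKM in control rats (SD, n = 3 each). Adora2a averaged 3.62 ± 0.533 FPKM in PDN, against 2.92 ± 0.399 FPKM in control rats, and Adora2b averaged 2.49 ± 0.541 FPKM in PDN, against 2.06 ± 0.485 FPKM in control rats. The fourth gene, Adora3, was listed at 0 in 5 of 6 libraries.

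Of 7 tested genes of ATP release and nucleoside transport, 4 had a higher and 3 a lower estimate, with a median of 0.05 and no unadjusted p under 0.05 in limma. Lrrc8a, a subunit of the volume-regulated anion channel, averaged 38.3 ± 2.23 FPKM in PDN, against 34.7 ± 2.21 FPKM in control rats (SD, n = 3 each). All its PDN values lay above all control values, as was so for 3.69% of tested genes. The pannexin gene Panx2 averaged 21.1 ± 3.55 FPKM in PDN, against 20.3 ± 3.08 FPKM in control rats, and Gja1, the connexin 43 of satellite glia, averaged 11.7 ± 2.24 FPKM in PDN, against 13.2 ± 0.128 FPKM in control rats. The vesicular nucleotide transporter gene Slc17a9 was at no more than 0.181 FPKM in any library.

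Of the G proteins and effectors of P2Y receptors, 5 of 12 tested genes were higher and 7 lower by estimate. The median was -0.02, with no unadjusted p under 0.05 in limma. In 2 of the 12 all PDN values lay below all control values, against 6.24% of tested genes. Gnao1, the Go alpha subunit abundant in neurons, averaged 127 ± 11.0 FPKM in PDN, against 122 ± 15.4 FPKM in control rats (SD, n = 3 each). Gnai2, a Gi alpha subunit, averaged 93.9 ± 2.36 FPKM in PDN, against 94.5 ± 1.47 FPKM in control rats. Gnaq, the partner of P2Y1, averaged 92.9 ± 2.11 FPKM in PDN, against 91.9 ± 4.07 FPKM in control rats.

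Of the partners and targets of P2X4 and P2X7, 7 of 8 tested genes were lower in PDN by estimate, against 7524 of the 13282 tested genes. The list's median was -0.22, and it ran from -0.28 to -0.11 with 1 library left out, being -0.11 without PDN 2, -0.14 without control 2 and -0.15 without control 1. Bdnf, the neurotrophin gene whose product microglia release after P2X4 activation, was at 5.15, 5.73 and 6.01 FPKM in PDN 1, 2 and 3, against 7.10, 7.58 and 7.24 FPKM in control 1, 2 and 3. All PDN values lay below all control values, as was so for 6.24% of tested genes. Its log2 fold change was -0.33 ± 0.08 (SE), with an unadjusted p of 0.00455 and an adjusted p of 0.811 in limma, so it did not pass the threshold. Which cells of this mixed tissue the Bdnf RNA came from was not measured. Of the more abundant members, Mapk14, the kinase p38 alpha, averaged 19.3 ± 0.763 FPKM in PDN, against 19.6 ± 0.392 FPKM in control rats, and the protease gene Ctss averaged 7.72 ± 1.45 FPKM in PDN, against 8.28 ± 0.0775 FPKM in control rats (SD, n = 3 each). Several genes of this list are expressed in macrophages, whose marker sum was lower in PDN by the narrow margin given above. The part of macrophages in the levels of this list was not tested.

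**Figure D5:**
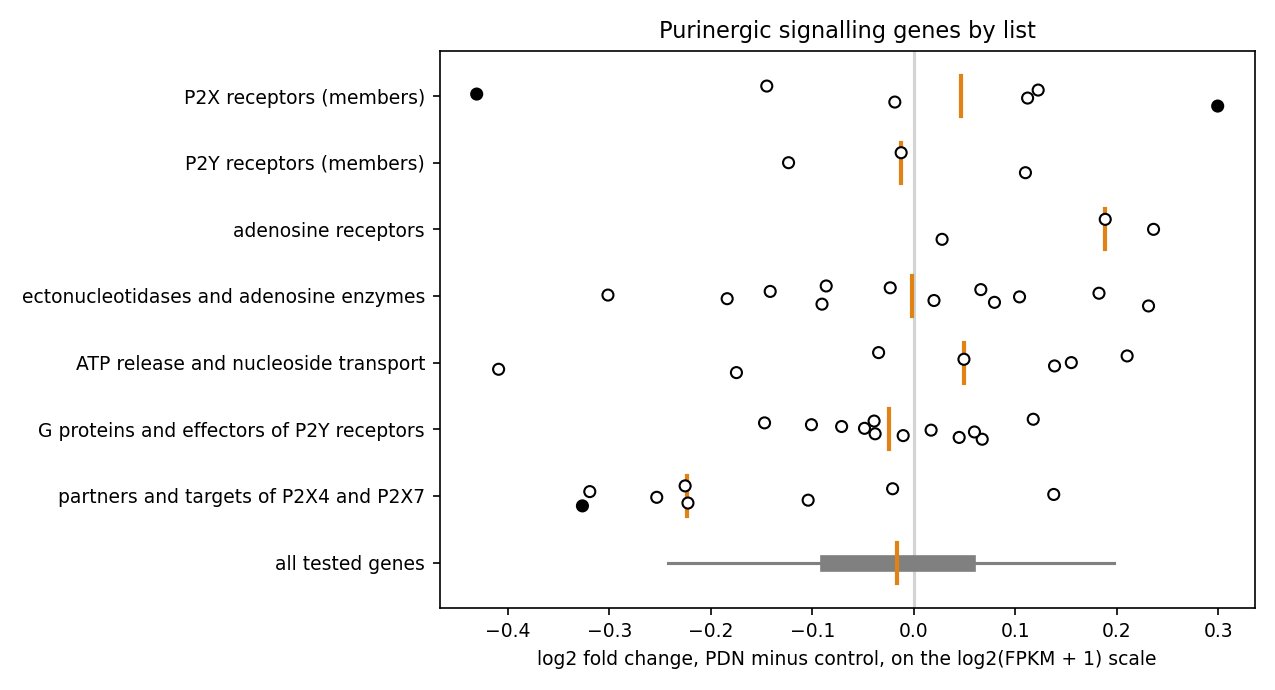
Log2 fold change (PDN over control, from log2(FPKM + 1)) of each tested gene of 7 purinergic lists; filled circles have an unadjusted p under 0.05 and orange lines are list medians. The bottom bar gives all 13282 tested genes (thick: 25th to 75th percentile, -0.0848 to 0.0526; thin: 5th to 95th percentile). The filled circles are P2rx5 and P2rx2 among the receptors and Bdnf (-0.33) among the partners of P2X4 and P2X7.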

How the data were processed

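Gene expression was measured in 6 rat libraries, 3 PDN and 3 control. Per the labels' protocols, RNA was taken with Trizol and strand-specific libraries for long noncoding RNA were made from 1 µg. The authors deposited FPKM per gene. They also deposited a table named for read counts, whose whole numbers were treated as a score: 54.5% to 54.9% of values above 1000 equal FPKM times genomic span times 1 constant per library, within 0.001, and none exceeds it. Those constants gave the fragments per library. The sources used here name no aligner, quantifier or genome build.

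A gene was tested where 3 or more libraries reached 1 FPKM (13282 genes). Values were taken as log2(FPKM + 1), and limma 3.58.1 (R 4.3.3) was fitted with trend and with group as the only term. Benjamini-Hochberg adjustment covered every tested gene, and the threshold was an adjusted p of 0.05. The scale understates changes of low genes. The fit was tried on simulated data with independent noise and with changes larger than that of any member. That trial cannot say how the fit does for changes of the members' size. Single values were tested by exact permutation over the 20 splits of 6 libraries into 3 and 3. Depth behind a single gene could only be bounded, by FPKM times the span of its locus, and such bounds cover counting error only.

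The members, gene lists and tests were chosen with earlier results of these data known. All members and other P2 receptor genes were named, plus, in each pathway list, the 3 tested genes with the highest mean FPKM and those with an unadjusted p under 0.05. Markers were given as sums, with the 2 most abundant named only for sensory neurons and non-peptidergic nociceptors. Likeness was given for P2rx3 and P2rx5 as the 5 tested genes with the highest r. Slc17a9, Adora3 and overlapping genes were named after their values were seen. Alternatives were another pseudocount (0.1), no filter, a stricter filter (FPKM of at least 5), 2 scalings, robust empirical Bayes, a replicate block, the whole-number table, leaving out each library, and leaving out the pair richest in muscle RNA.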

Additional observations from a re-analysis of the deposited data

How the results depend on the processing

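The count of receptor genes past the threshold stayed at 0 under all 15 alternatives, and so did that of the other purinergic genes. The count over all genes, 0 in the analysis reported, was 1 without the filter, 1 with robust empirical Bayes, 2 in the whole-number table, 9 without the libraries richest in muscle RNA, and 0 to 6 when each library was left out (0 without PDN 2 or control 2). P2rx5 was lower under all 15 alternatives (-0.49 to -0.31) and P2rx2 higher under the 14 that tested it (0.21 to 0.46). The log2 ratio of P2rx3 to P2rx2 in PDN stayed below the control value under its 8 alternatives (difference -0.60 to -0.42). As it mostly restates P2rx2, it is not a separate result. P2rx2 had an unadjusted p under 0.05 in 6 of its 14 alternatives and P2rx5 in all 15.

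Signs turned for several values, and for P2rx4 and P2rx7 only without PDN 2. Both scalings move all genes nearly alike, so a turn under them says nothing about a single gene. P2rx3 was at 0.00225 with median-of-ratios scaling, 0.00415 in the whole-number table, and -0.0659 to 0.0263 when each library was left out. P2ry2 was at 0.00573 with median-of-ratios scaling, 0.00301 with upper-quartile scaling, 0.00644 in the whole-number table, 0.0545 without the libraries richest in muscle RNA, and -0.0870 to 0.0296 when each library was left out. P2rx4 ran from -0.21 (without PDN 2) to 0.40 and P2rx7 from -0.30 to 0.0360 (without PDN 2). The P2X sum difference was 0.799 FPKM with median-of-ratios scaling and ran from -7.80 to 3.40 FPKM when each library was left out. With each library left out, the P2Y sum difference ran from -0.121 to 1.501 FPKM and the P2rx3 share difference from -1.33 to 0.505 percentage points. Without the libraries richest in muscle RNA the P2Y sum difference was 1.74 FPKM. The list medians of nucleotide enzymes (-0.03 to 0.04), ATP release (-0.06 to 0.16) and G proteins (to 0.01) also turned sign with 1 library left out. The cause was not tested.

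Replicate numbers gave no sign of a pairing: same-numbered deviations correlated at 0.171, -0.120 and -0.0865, and differently numbered ones at -0.219 to 0.269. The highest value was that of PDN 3 with control 2, the libraries richest in muscle RNA. With so few libraries that also differ in muscle RNA, the check cannot exclude a pairing. With a replicate block 0 genes passed, and P2rx2 had an unadjusted p of 0.0599. The stricter filter gave no value for P2rx2, P2rx7 and P2ry12.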
